A study of Mus musculus with 2 samples.

Results

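Type 2 conventional dendritic cells (cDC2) were selected from tumour-infiltrating immune cells by a rule on raw counts of unique molecular identifiers (UMIs, counts of captured RNA molecules). A barcode with at least 200 genes was a member if it had 3 or more UMIs of Cd209a and 20 or more UMIs of the class II genes H2-Aa and H2-Ab1 together. It could hold at most 1 UMI of Xcr1 plus Clec9a, 2 of Fscn1 plus Ccr7, 5 of C1qa plus C1qb, 4 of Retnla, and 1 of Cd3e, Cd3d and Cd3g together. The rule found 249 cDC2 among 5765 barcodes of the E2 library and 88 among 3490 barcodes of the placebo library, 337 of 9255 in all.

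The cells came from tumours of C57BL6\J mice that had all been ovariectomised, an operation that removes the main source of estrogen. One group received E2, the usual abbreviation of estradiol, and the other received placebo. Live cells carrying the white blood cell protein CD45 were sorted from the dissociated tumours and their RNA was counted by droplet-based 3′ sequencing (10x Genomics). Each group was 1 library, and neither the tumour, the E2 regimen nor the number of mice pooled in a library is given in the sources used here, so every difference below lies between 2 libraries and no test of the treatment was possible.

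Conventional dendritic cells take up antigen in tissue, cut it into peptides and show the peptides on MHC molecules to T cells. The type 2 lineage shows antigen on MHC class II to CD4 T cells above all, carries C-type lectins that bind sugars on microbes and dying cells, and depends on the growth factor receptor Flt3. In tumours these cells sit beside monocytes and macrophages with which they share many genes, and beside the type 1 lineage (cDC1), known for showing antigen to CD8 T cells.

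The markers that the rule did not use were compared with other gates. Clec10a, a lectin of cDC2 and macrophages, was at 508 CPM (the UMIs of a gene summed over the cells of a gate and scaled to a common total) in E2 cDC2 and 459.8 CPM in placebo cDC2. The highest Clec10a level among 5 other gates, drawn by similar rules on raw UMIs, was 145 CPM in E2 and 84.4 CPM in placebo macrophages chosen by C1q genes. Klrd1, a lectin-like receptor subunit best known from natural killer cells, was at 346 and 321 CPM in E2 and placebo cDC2, and at most at 89.6 and 127 CPM in the other gates. Mgl2, a lectin close to Clec10a, was at 1270.3 CPM in E2 cDC2 and 900.0 CPM in placebo cDC2, with the C1q macrophage gate next at 601 and 375 CPM. Flt3 was at 109 CPM in E2 and 144 CPM in placebo cDC2. That was below the cDC1 gate, at 233 and 319 CPM, and the mature dendritic cell gate, at 180 and 189 CPM. It was above the C1q macrophage gate, at 5.63 and 7.72 CPM. Clec10a, Klrd1 and Mgl2 were thus highest in the cDC2 gate, while Flt3 did not set cDC2 apart from the other dendritic cells. No gate was drawn for plasmacytoid dendritic cells or natural killer cells.

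**Figure D1:**
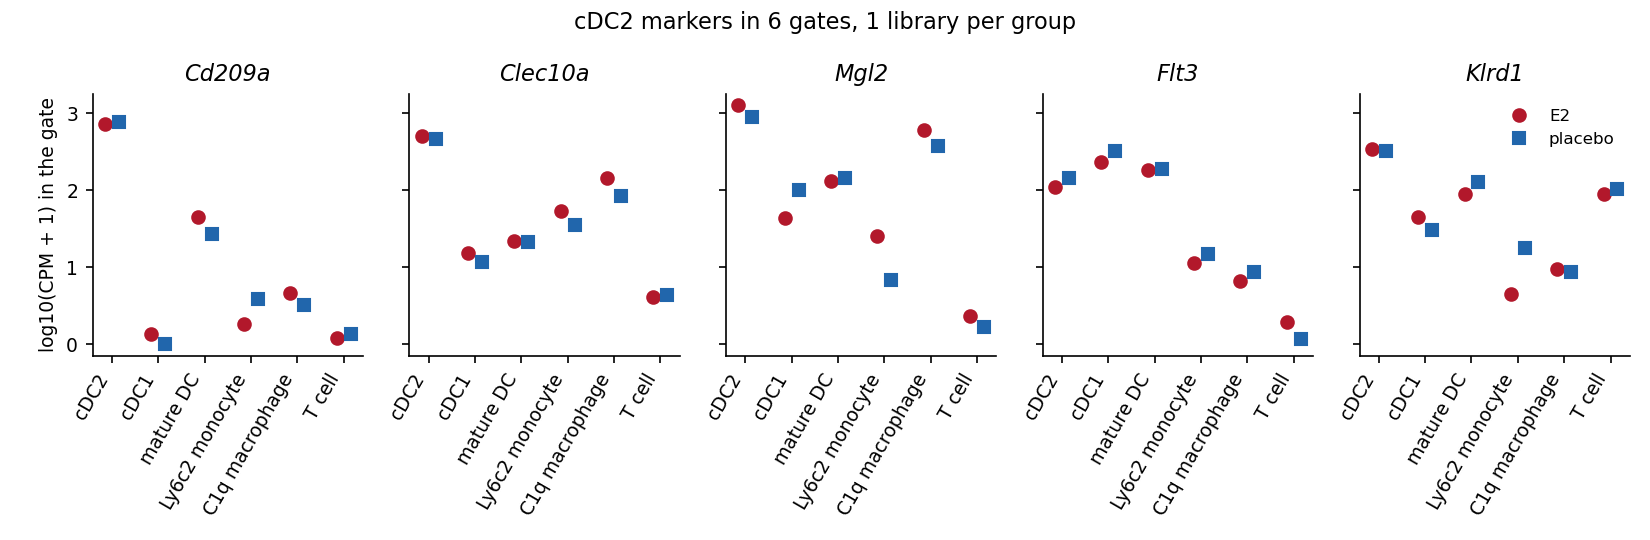
Levels of the 5 cDC2 marker genes (y axis, log10 of CPM + 1) in 6 gates, as 1 point per library, E2 circles and placebo squares. Clec10a, Mgl2 and Klrd1 were highest in the cDC2 gate in both libraries, Flt3 was higher in the cDC1 and mature dendritic cell gates, and Cd209a, which chose the cells, is shown as a description.

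The genes used in the rule are given as a description. Cd209a (chromosome 8, 3743397 to 3748984, minus strand, mm10), the lectin that defined the gate, was at 719 CPM in E2 and 769 CPM in placebo cDC2. H2-Aa was at 9567 and 8201 CPM and H2-Ab1 at 12559.9 and 10099 CPM, in every cell of both libraries. The excluded genes were scarce, with 3 and 1 UMIs of Xcr1, 4 and 4 UMIs of Clec9a, 15 and 1 UMIs of C1qa and 3 and 0 UMIs of Cd3d. At the Cd209a limit, 30 E2 and 9 placebo members held exactly 3 UMIs, and 35 E2 and 15 placebo barcodes that met every other term held 2 and stayed outside.

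The 2 libraries differed in depth. The E2 library held 52628133 UMIs in 5791 barcodes and the placebo library 24545595 UMIs in 3505 barcodes, with medians of 8108 and 5158.5 UMIs per kept barcode. The cDC2 themselves were close in depth, at medians of 14102 and 13538 UMIs and 3340 and 3552 genes per cell. The libraries had 95 barcode sequences in common, of which 0 E2 and 1 placebo cDC2 carried one.

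cDC2 were 4.32% of barcodes in the E2 library (95% interval 3.81 to 4.88%) and 2.52% in the placebo library (2.03 to 3.1%), a ratio of 1.71 (1.34 to 2.21). All intervals here are exact, the limit of a count of 0 is taken as 3 counts, and both cover counting error only. With every barcode thinned to 2000 UMIs the shares were 0.954% and 0.559% and the ratio was 1.71. Among barcodes with 20 or more UMIs of H2-Aa and H2-Ab1, however, cDC2 were 11.6% and 10.0%, a ratio of 1.16. Other gates moved in both directions, with a ratio of 3.32 for cDC1 (296 and 54 cells), 1.91 for C1q macrophages (983 and 312), 0.597 for mature dendritic cells (68 and 69) and 0.502 for T cells (883 and 1065). The share of cDC2 therefore stood higher in the E2 library over all barcodes and closer to level within the class II-bearing barcodes.

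Against the cDC1 gate, cDC2 of both libraries held far more S100a4, a calcium-binding protein of motile cells, at 3545 CPM in E2 cDC2 against 62.5 CPM in E2 cDC1, and at 3871 CPM in placebo cDC2 against 33.4 CPM in placebo cDC1. Sirpa, the inhibitory receptor that binds CD47 and a classical cDC2 surface protein, was at 244 against 9.06 CPM in the E2 library and 270 against 3.24 CPM in the placebo library. The mannose receptor Mrc1 was at 278 against 7.02 CPM and at 237 against 0 CPM. In the other direction, Irf8, the transcription factor that cDC1 require, was at 78.4 CPM in cDC2 against 1570 CPM in cDC1 in the E2 library, and at 152 against 1709 CPM in the placebo library. Itgae, which encodes the integrin CD103, was at 13.3 against 407 CPM and at 7.89 against 495 CPM, and the RNA sensor gene Tlr3 at 3.20 against 201 CPM and at 0.789 against 241 CPM. Of 2660 genes compared, 80 (3.01%) were at least 4-fold higher and 26 (0.977%) at least 4-fold lower in cDC2 than in cDC1 in both libraries. Since the gates were drawn on these same cells, these contrasts describe the gates and were not tested.

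Against mature dendritic cells, chosen by Fscn1 and Ccr7, 82 of 2878 genes (2.85%) were at least 4-fold higher and 123 (4.27%) at least 4-fold lower in cDC2 in both libraries. E-cadherin, a cell adhesion protein encoded by Cdh1, was at 119 CPM in cDC2 against 8.68 CPM in mature cells in the E2 library, and at 196 against 5.62 CPM in the placebo library. The T cell-attracting chemokine Ccl22 was at 65.8 against 3369 CPM and at 18.9 against 3123 CPM. Cacnb3, a calcium channel subunit, had 0 UMIs in all cDC2 and stood at 555 and 551 CPM in E2 and placebo mature cells.

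Monocytes and macrophages share many genes with cDC2, and their gates were compared in the same way. Against the Ly6c2 monocyte gate 43 of 2870 genes (1.5%) were at least 4-fold higher and 62 (2.16%) at least 4-fold lower. Ccl17, a chemokine for CCR4-bearing T cells, was at 672 CPM in cDC2 against 0.610 CPM in monocytes in the E2 library, and at 585 against 1.15 CPM in the placebo library. The class II gene H2-Eb1 was at 11762 against 506 CPM and at 8871 against 459.95 CPM. Chil3, a secreted chitinase-like protein of monocytes, was at 3.20 against 3083 CPM in the E2 library and had 0 UMIs in placebo cDC2 against 657 CPM in placebo monocytes. Against the C1q macrophage gate 21 of 2824 genes (0.744%) were at least 4-fold higher and 71 (2.51%) lower, and the lower ones included the lipid carrier gene Apoe, at 167 against 15762 CPM and at 65.5 against 9303 CPM. The lectin gene Cd209d was higher than in cDC1, monocytes and C1q macrophages alike, at 360 CPM in E2 and 506 CPM in placebo cDC2 and at most at 13.4 and 6.07 CPM in those gates.

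Some marker lists of other cell types were near the floor, and others were well above it. B cell markers summed to 5.33 and 14.2 CPM in E2 and placebo cDC2, and keratinocyte markers to 2.40 and 3.94 CPM. T cell markers summed to 1.60 and 1.58 CPM. Cd3e, Cd3d and Cd3g of that list were limited by the rule, so its sum was in part low by design. The rule also limited C1qa and C1qb of the macrophage list. In the same way it limited Xcr1 and Clec9a of the cDC1 list and Fscn1 and Ccr7 of the mature dendritic cell list. Monocyte markers summed to 1287 and 1585 CPM, macrophage markers to 549 and 402 CPM, and plasmacytoid dendritic cell markers to 545 and 1039 CPM. Over all barcodes of the E2 and placebo libraries the plasmacytoid sum was lower, at 488 and 367 CPM, and the monocyte and macrophage sums were higher. Neutrophil markers stood at 336 CPM in E2 against 29.97 CPM in placebo cDC2, and 5 cells held 93.7% of the E2 sum. By a doublet score, 11 E2 and 1 placebo members were called doublets. These were kept, and values without them are given where they move a result.

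Among 9582 genes with at least 20 UMIs over both libraries, 172 (1.80%) were at least 1.5-fold higher and 405 (4.23%) at least 1.5-fold lower in E2 than in placebo cDC2, on the log2 scale of CPM + 10, which understates the ratio of low genes. The median log2 ratio over all of these genes was -0.10 and 36.7% were above 0. That balance depended on the scaling: with TMM factors the median was 0.04, and 310 genes were higher and 153 lower, so that 67.0% of the called genes were higher instead of 29.8%. List medians below are therefore read beside the median of all genes.

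**Figure D2:**
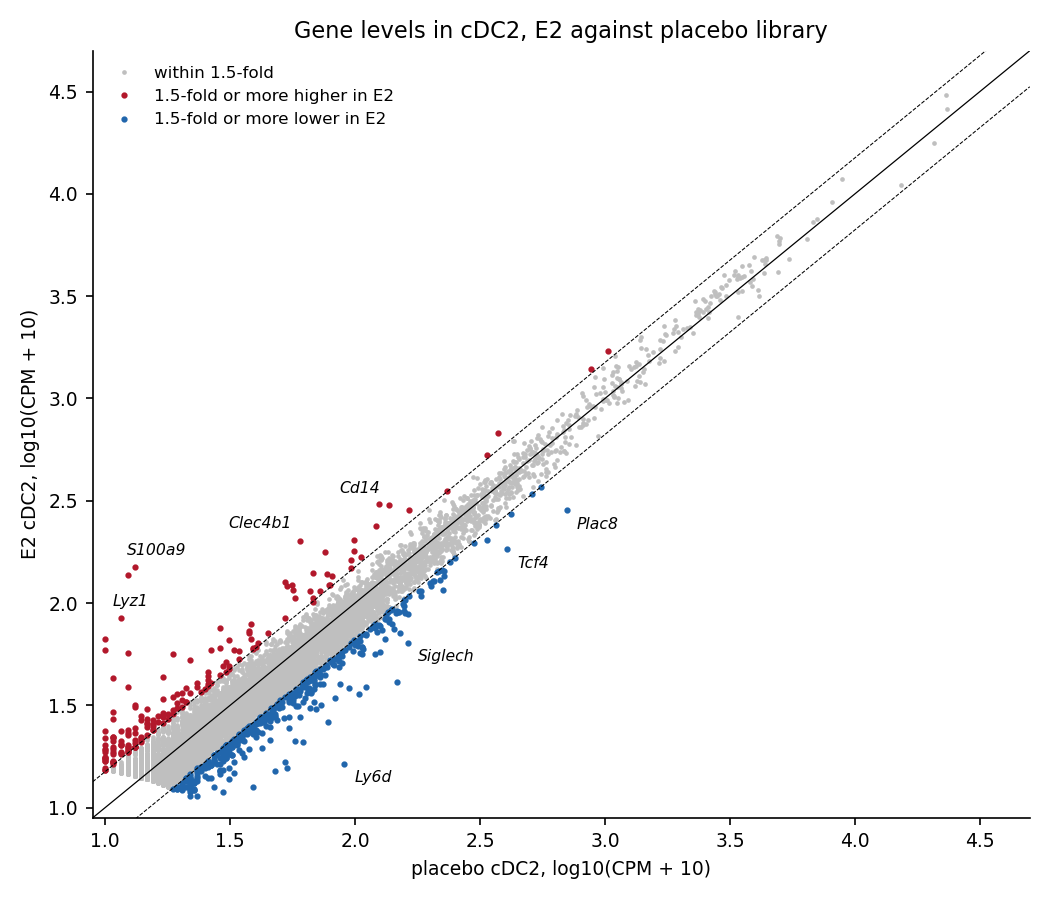
Level of each of the 9582 genes in placebo cDC2 (x axis) and E2 cDC2 (y axis), as log10 of CPM + 10, with the 1.5-fold limits as dashed lines. The 172 genes higher in E2 and 405 lower in E2 are coloured, and few of them lie among the abundant genes.

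Several of the genes highest in E2 over placebo cDC2 had their UMIs spread over many cells. Clec4b1 (chromosome 6, 123049962 to 123071555, plus strand), a C-type lectin of the dendritic cell immunoreceptor cluster, was at 192 CPM in E2 and 50.5 CPM in placebo cDC2, 3.80-fold higher (2.94 to 4.98), with UMIs in 153 and 31 cells. Thinned to 2000 UMIs, 21.1% of 247 E2 cDC2 (16.1 to 26.7%) and 9.09% of 88 placebo cDC2 (4.01 to 17.1%) had a Clec4b1 UMI, against unthinned shares of 61.4% and 35.2%, and 0 of 861 E2 and 0 of 1048 placebo thinned cells of the T cell gate, which should lack it, had one, which allows shares of up to 0.348% and 0.286%. Thinning left out 2 E2 and 0 placebo cDC2, and the median depth of the T cell gate was 4505 and 4756 UMIs before it. Clec4b1 was thus higher both per cell pool and in the share of cells.

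Slamf7 (chromosome 1, 171632403 to 171653035, minus strand), a receptor that binds copies of itself on other immune cells, was at 117 CPM in E2 and 42.6 CPM in placebo cDC2, 2.75-fold higher (2.07 to 3.72), in 181 of 249 and 30 of 88 cells. After thinning, 19.4% of E2 cDC2 (14.7 to 24.9%) and 4.55% of placebo cDC2 (1.25 to 11.2%) had a Slamf7 UMI, against unthinned shares of 72.7% and 34.1%. The thinned shares in the T cell gate, whose cells can also express Slamf7, were 2.67% and 3.24% and give no background. In cDC1 and mature dendritic cells Slamf7 was at 163 and 154 CPM in the E2 library and at 131 and 173 CPM in the placebo library, within 1.5-fold in both. Cd14, the co-receptor for bacterial lipopolysaccharide, was at 291 CPM in E2 and 126 CPM in placebo cDC2, 2.30-fold higher (1.95 to 2.74), in 149 and 42 cells. Plscr1, a phospholipid scramblase induced by interferon, was 2.47-fold higher (1.87 to 3.31) and Dpep2, a dipeptidase that processes leukotrienes, 2.55-fold higher (1.92 to 3.44). Dpep2 and Cd14 are also abundant in the monocyte and macrophage gates, where the E2 level was higher as well, at 141 and 1688 CPM in E2 monocytes against 74.8 and 1116 CPM in placebo monocytes. Whether RNA from such cells contributed was not tested.

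Other genes at the top of the list rested on a few cells. S100a9 and S100a8, the subunits of calprotectin that fill neutrophils, were at 139.7 and 127 CPM in E2 cDC2 and had 4 and 3 UMIs in placebo cDC2, but a single E2 cell held 78.2% of the S100a9 UMIs and 80.7% of the S100a8 UMIs. Without the cells called doublets the S100a9 log2 ratio was 0.57, against 3.51 for all members. Single E2 cells also held 97.8% of the Lyz1 UMIs and 97.2% of the Igfbp7 UMIs, the second of which had 0 UMIs in placebo cDC2. One cell of each library held more than 50% of Apoe and Ccl22, at 59.6% and 61.1% in E2 cells and 50.6% and 58.3% in placebo cells. Without doublets Apoe lay on the other side, at a log2 ratio of -0.14 against 1.23 with them. Fibronectin (Fn1) was at 296 CPM in E2 and 114 CPM in placebo cDC2, 2.59-fold higher (2.18 to 3.1), in 73 and 28 cells, and the mean over cells gave a log2 ratio of 0.35 against 1.30 for the pool.

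Among the genes lower in E2 cDC2, Plac8 (chromosome 5, 100553725 to 100572245, minus strand), a small cysteine-rich protein of immature myeloid and plasmacytoid cells, was at 274 CPM in E2 and 693 CPM in placebo cDC2, 2.53-fold lower (2.31 to 2.77). Its UMIs lay in 94 of 249 and 58 of 88 cells. Thinned, 20.6% of E2 cDC2 (15.8 to 26.2%) and 44.3% of placebo cDC2 (33.7 to 55.3%) had a Plac8 UMI, against 4.41% and 2.96% in the T cell gate, and the unthinned cDC2 shares were 37.8% and 65.9%. Pi16, a peptidase inhibitor, was 3.45-fold lower (2.65 to 4.49), at 29.1 and 100.2 CPM. Plac8 and Pi16 are also monocyte genes, at 2708 and 65.1 CPM in the E2 monocyte gate and 2979 and 74.3 CPM in the placebo monocyte gate. With cells holding a Ly6c2 UMI or other monocyte genes left out, the log2 ratio of Plac8 was -2.13, farther from 0 than the -1.31 of all members, and that of Pi16 was -1.31 against -1.50.

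Areg, which encodes a ligand for EGF receptors, was at 25.9 and 93.9 CPM, 3.63-fold lower (2.75 to 4.80). Its UMIs lay in only 22 of 249 E2 and 9 of 88 placebo cells. The ratio thus rested on few cells, while its interval treats each UMI as a separate count. Qsox1, which forms disulfide bonds in secreted proteins, was at 28.3 and 84.4 CPM, 2.99-fold lower (2.26 to 3.94). The calcium pump gene Atp2b4 was 4.76-fold lower (3.18 to 7.21), at 10.9 and 52.1 CPM, the amino acid transporter gene Slc7a5 2.92-fold lower, at 21.6 and 63.1 CPM, and the collagen-binding inhibitory receptor gene Lair1 2.96-fold lower, at 20.3 and 59.9 CPM.

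A small set of members carried RNA of plasmacytoid dendritic cells, the interferon-producing lineage. Siglech, its surface lectin, was at 54.1 CPM in E2 and 152 CPM in placebo cDC2, and 8 of 249 E2 cells (3.21%, 1.40 to 6.23%) and 6 of 88 placebo cells (6.82%, 2.54 to 14.3%) with 3 or more UMIs held 95.6% and 96.4% of it. These cells held 0 called doublets. Bst2, an antiviral surface protein abundant in that lineage, was at 4021 and 3333 CPM in the E2 and placebo cells with Siglech, against 161 and 193 CPM in the other cDC2. Irf8 was at 1881 and 2036 CPM in them against 36.6 and 48.3 CPM, Mgl2 at 11.8 and 196 CPM against 1299.5 and 939 CPM, and H2-Ab1 at 2834 and 3228 CPM against 12786 and 10478 CPM. Klrd1 was at 764 and 377 CPM in the cells with Siglech against 336 and 318 CPM, and Flt3 at 188 and 347 CPM against 107 and 133 CPM. Clec10a was lower in them, at 282 and 287 CPM against 513 and 469 CPM. The gate thus held, beside typical cDC2, a minority with low class II RNA, high Irf8 RNA and Cd209a at 470 and 422 CPM. Ly6d, at 6.40 CPM in E2 and 80.5 CPM in placebo cDC2, lay in 3 and 5 cells, all of them in this set, and the lymphoid homing receptor gene Ccr9, at 16.3 and 67.8 CPM, in 12 and 11 cells.

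Tcf4, the transcription factor that specifies plasmacytoid dendritic cells and is also used by a subset of cDC2, differed beyond that set. It was at 173 CPM in E2 and 397 CPM in placebo cDC2, 2.29-fold lower (2.04 to 2.58), in 154 and 61 cells. Without the cells with Siglech it was at 146 and 330 CPM, with a log2 ratio of -1.13 against -1.15 for all members. Plac8, Pi16, Areg and Atp2b4 also kept log2 ratios from -1.60 to -1.38 without those cells, an alternative chosen after the data were seen. Ctsl, which encodes the protease cathepsin L, was at 47.7 and 116 CPM in all members and at a log2 ratio of 0.01 without them. Lair1 was at 400 and 588 CPM in the E2 and placebo cells with Siglech, against 11.5 and 30.8 CPM in the other cDC2. Its log2 ratio was -0.93 without the cells with Siglech and -1.21 for all members.

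**Figure D3:**
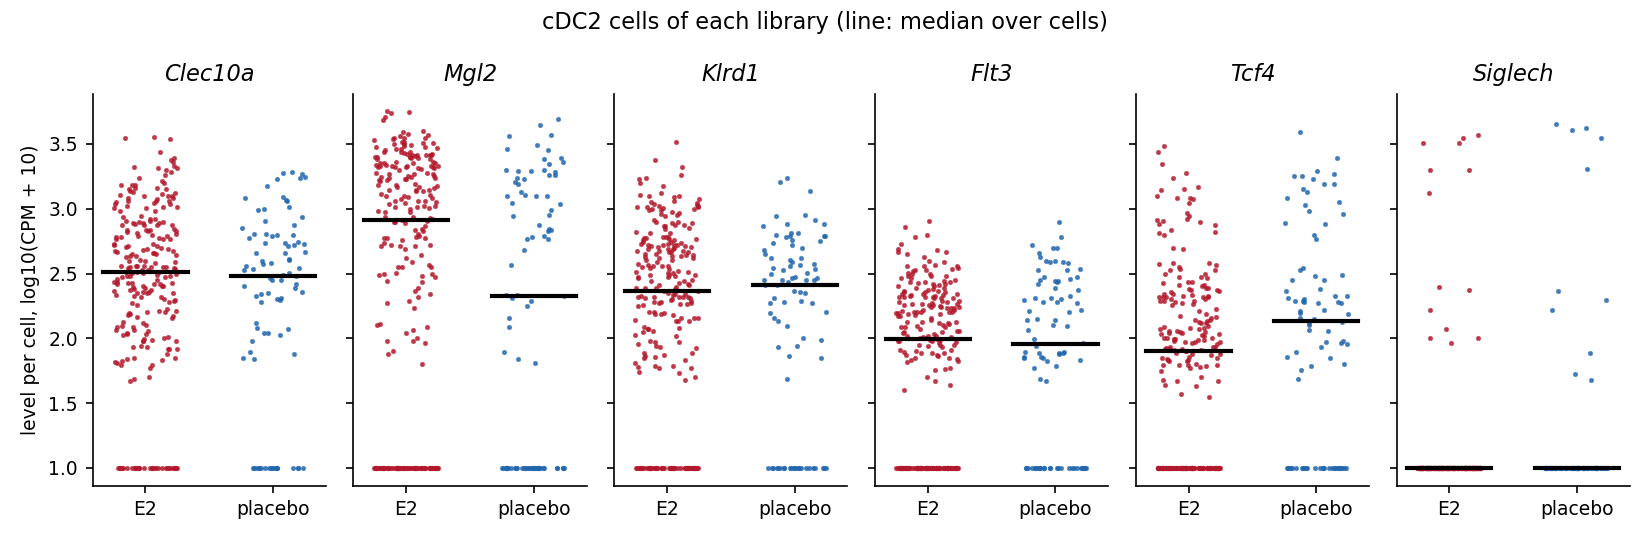
Level of 6 genes in each cDC2 (y axis, log10 of CPM + 10 per cell, 1 point a cell, cells without a UMI at 1.0), E2 cells left and placebo cells right, with the median over cells as a line. Mgl2 was absent from 68 of 249 E2 and 35 of 88 placebo cells, the upper cloud of Tcf4 held a larger part of the placebo cells, and Siglech lay in a few cells of each library.

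Mgl2 (chromosome 11, 70130329 to 70137550, plus strand) was the defining marker that differed most. It was 1.41-fold higher in E2 cDC2 (1.32 to 1.51), with UMIs in 181 of 249 E2 and 53 of 88 placebo cells. Per cell its median was 813 CPM in E2 and 204 CPM in placebo cDC2, and after thinning 57.9% of E2 cells (51.5 to 64.1%) and 43.2% of placebo cells (32.7 to 54.2%) had an Mgl2 UMI, against 0.348% and 0.0954% in the T cell gate. The unthinned shares were 72.7% and 60.2%. The Clec10a shares lay closer together, at 49.8% (43.4 to 56.2%) and 51.1% (40.2 to 61.9%) after thinning and 88.0% and 79.5% before.

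Of 24 gene lists, that of cholesterol synthesis and uptake lay lowest in E2 cDC2. Cells make cholesterol from acetyl-CoA through the mevalonate pathway and take it up from lipoproteins, and the factor SREBP2, encoded by Srebf2, switches on both sets of genes when membranes run short of sterol. All 14 members measured were below 0 and 9 were at least 1.5-fold lower, against 4.23% of all genes, and 0 were higher, with a median log2 ratio of -0.69 beside -0.10 for all genes. The median lay between -0.80 and -0.47 under all alternatives run, TMM scaling included at -0.51.

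At the entry to the pathway, Hmgcs1 (chromosome 13, 119690379 to 119708260, plus strand), HMG-CoA synthase, was at 46.4 CPM in E2 and 109.6 CPM in placebo cDC2, 2.36-fold lower (1.88 to 2.97). Of the enzymes that build the isoprenoid chain, Idi1 was at 49.6 and 97.8 CPM, 1.97-fold lower (1.56 to 2.49), and Fdps at 89.3 and 146 CPM. Each of these 3 enzymes was lower in E2 cDC2. Squalene is made and closed into the first sterol by Fdft1, at 13.9 and 29.97 CPM, 2.16-fold lower (1.38 to 3.35), Sqle, at 29.1 and 46.5 CPM, and Lss, at 5.07 and 10.3 CPM. The later sterol enzymes were Cyp51, at 70.4 and 127 CPM, 1.80-fold lower (1.47 to 2.20), and Msmo1, at 52.3 and 89.9 CPM. The direction was thus the same at each of these steps.

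Control and transport genes lay on the same side. Insig1, which holds the SREBP machinery back in the endoplasmic reticulum, was at 79.2 CPM in E2 and 136 CPM in placebo cDC2, Srebf2 itself at 94.6 and 134 CPM, and the sterol transport gene Stard4 at 29.1 and 48.1 CPM. Per cell, the summed list had a median of 526 CPM in E2 (quartiles 294 and 987) and 862 CPM in placebo cDC2 (536 and 1850), and 4 E2 and 0 placebo cells had no UMI of any member. The cells of the libraries overlapped widely, and the median and both quartiles of the E2 cells stood lower.

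**Figure D4:**
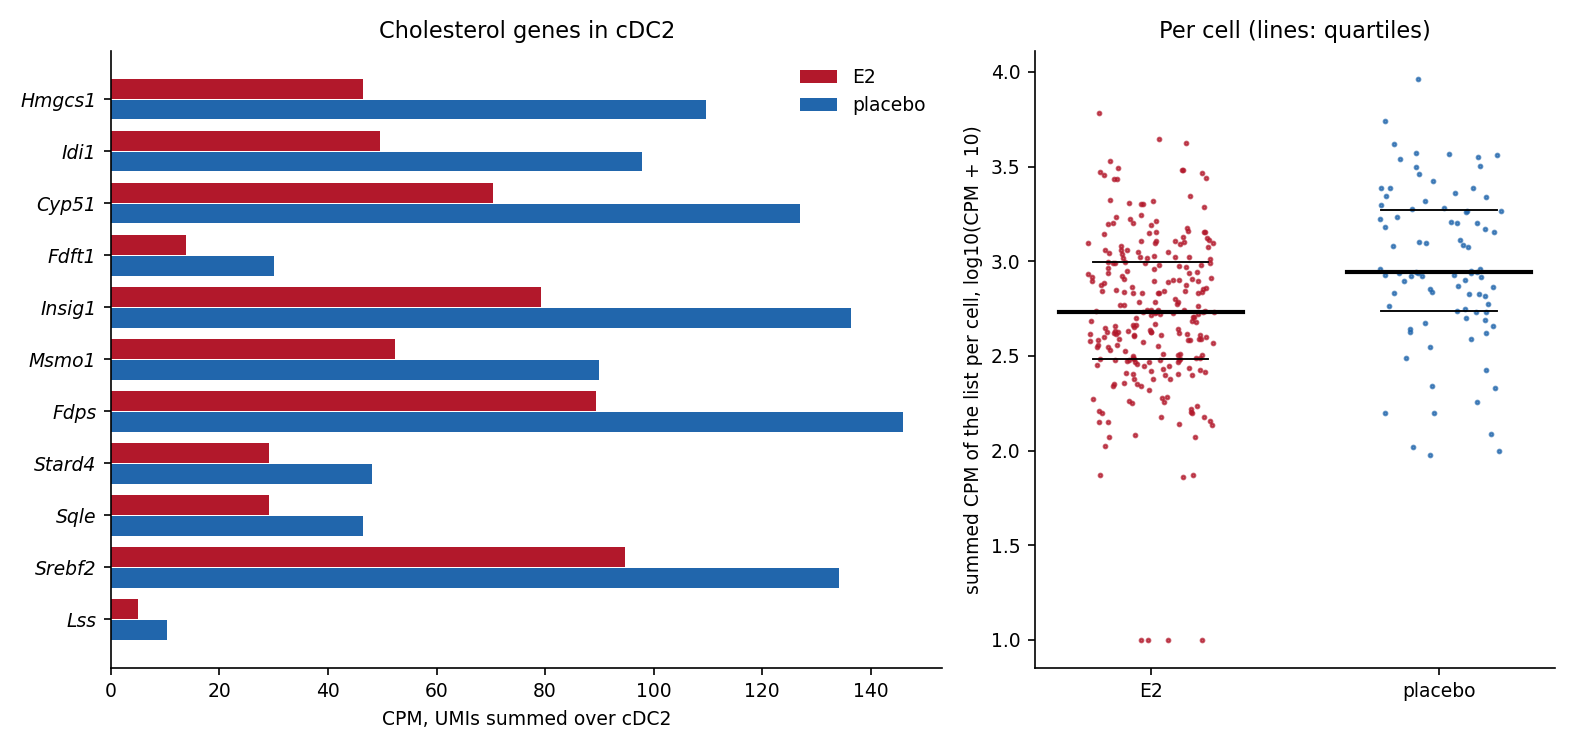
Left, levels (x axis, CPM of UMIs summed over cDC2) of 11 of the 14 cholesterol genes, E2 bar above placebo bar. Right, the summed list per cell (y axis, log10 of CPM + 10), 1 point a cell, with the median as a thick and the quartiles as thin lines, at 526 CPM in E2 and 862 CPM in placebo cDC2. All 11 E2 bars are shorter than their placebo bars.

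The list was not lower in cDC2 alone. In the C1q macrophage gate all 14 members were below 0 and 10 were at least 1.5-fold lower (background 1.43%), with a median of -0.66. In the cDC1 gate 13 were below 0 and 4 were at least 1.5-fold lower (background 4.08%), with a median of -0.44. The medians were -0.20 in the T cell gate, -0.10 in mature dendritic cells and -0.05 in Ly6c2 monocytes. The differences between gates were not tested.

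The promoter of Hmgcs1 is shown because that gene has the lowest ratio of the list and its promoter holds a form of the sterol regulatory element, the site that SREBP factors read. A search of 300-base promoters (250 bases before and 50 after the start, RefSeq, GRCm38.p6) on both strands found the letters TCACNCCAC in 1 of the 7 list members with an entry and in 1.24% of 32851 promoters. The letters CCAAT, a box bound by the partner factor NF-Y, were in 7 of 7 and in 37.4% of all promoters. The window below is chr13:119690194-119690273 on the plus strand, from 157 to 78 bases before the start, with the TCACNCCAC match in capitals.
Hmgcs1: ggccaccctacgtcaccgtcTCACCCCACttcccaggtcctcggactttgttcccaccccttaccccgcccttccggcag

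MHC class II presentation genes, the machinery of CD4 T cell help, stood slightly higher in E2 cDC2. Of 12 members outside the rule 10 were above 0, beside 36.7% of all genes. None was at least 1.5-fold higher or lower, and the median was 0.18 beside -0.10 for all genes. Cd74, the invariant chain that guards the class II groove, was at 30610 CPM in E2 and 23105 CPM in placebo cDC2, and H2-Eb1 was 1.33-fold higher (1.30 to 1.35). Cathepsin S (Ctss), which trims the invariant chain, was at 1430 and 1100 CPM, and the protease gene Lgmn at 88.8 and 60.7 CPM. Ciita, the master regulator of these genes, lay on the other side at 151 and 174 CPM. Summed per cell, the list had a median of 49604 CPM in E2 and 39749 CPM in placebo cDC2. In the other 5 gates the list had medians from -0.19 to -0.04. The MHC class I list had 14 of 20 members below 0, beside 63.3% of all genes, and 0 past 1.5-fold in either direction. Its median was -0.17, or -0.02 under TMM scaling.

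C-type lectin and Fc receptor genes, the uptake receptors of these cells, had 12 of 17 members above 0, 4 at least 1.5-fold higher, 0 lower and a median of 0.31. Over all genes 36.7% were above 0 and 1.80% were higher. The list median was also above 0 in the other 5 gates, from 0.14 in the T cell gate to 0.39 in mature dendritic cells. Beside Clec4b1, these were its neighbours Clec4a2 (chromosome 6, 123106428 to 123143999), an inhibitory lectin, at 130 CPM in E2 and 57.6 CPM in placebo cDC2, and Clec4n (chromosome 6, 123229843 to 123247021), which encodes the fungal receptor Dectin-2, at 129 and 67.0 CPM. Cd302, a lectin of migrating cells, was at 95.4 and 47.3 CPM. Clec4a2 was 2.25-fold higher (1.76 to 2.92), in 141 of 249 and 35 of 88 cells, and Fcer1g, the signalling chain shared by Fc receptors and Dectin-2, was 1.44-fold higher. Cd209d and the inhibitory Fc receptor gene Fcgr2b lay on the other side, at 360 and 428 CPM in E2 and 506 and 584 CPM in placebo cDC2. Clec4a2, Clec4n and Cd302 are at like or higher levels in the C1q macrophage gate, at 315, 170 and 195 CPM in the E2 library and 250.5, 172 and 154 CPM in the placebo library. The macrophage marker list in cDC2 was at 549 and 402 CPM, and its part in these values was not tested.

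**Figure D5:**
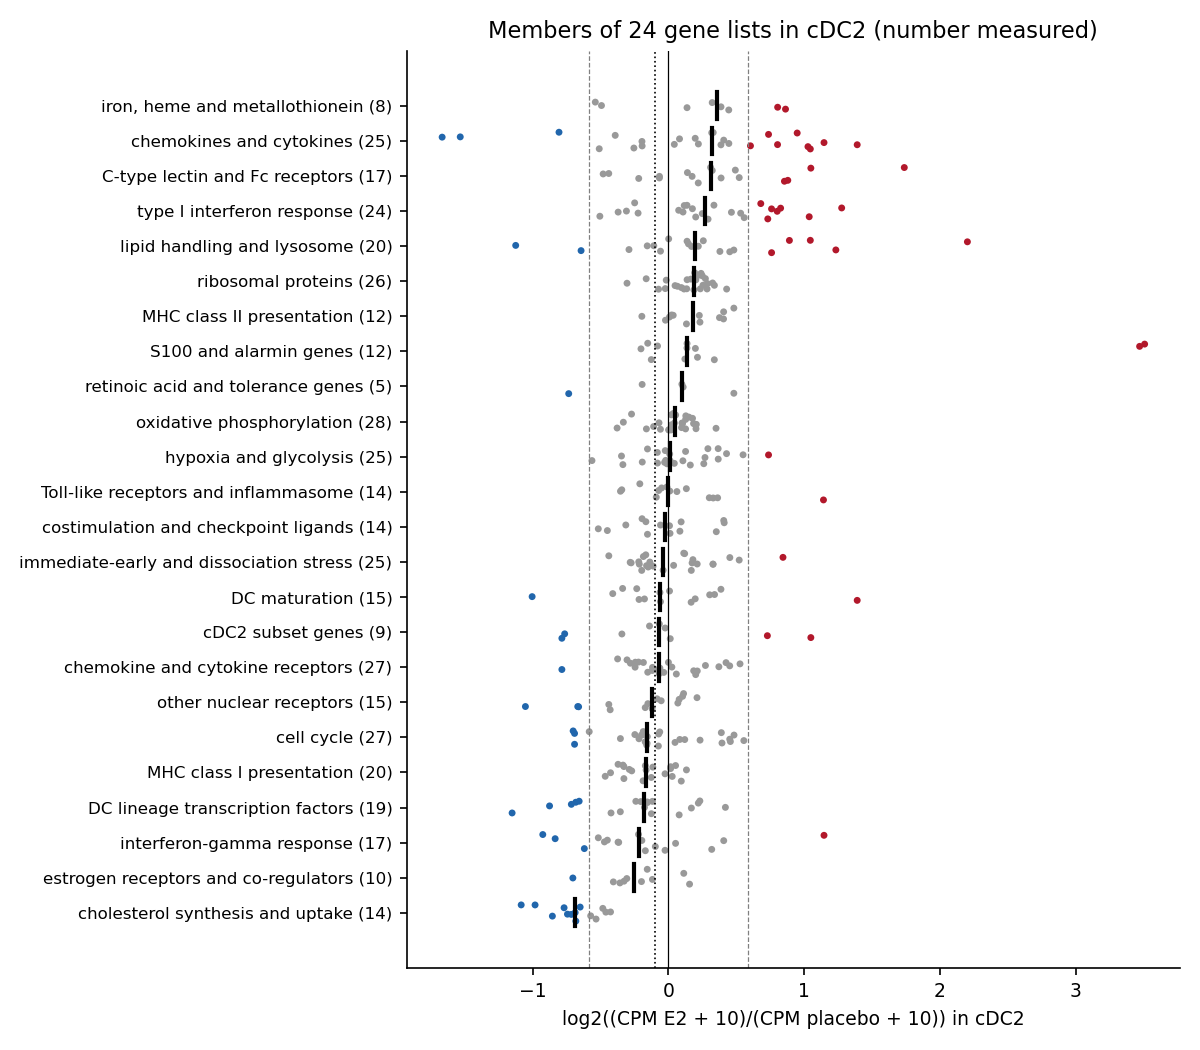
Log2 ratio of E2 over placebo cDC2 (x axis) for each measured member of 24 gene lists (rows, with the number measured), with the list median as a bar, the median of all genes (-0.10) as a dotted line and the 1.5-fold limits as dashed lines. All 14 cholesterol genes lie left of 0, and the medians of the iron, chemokine and lectin lists lie farthest to the right.

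Interferon-gamma, which T and natural killer cells release on activation, raises antigen presentation in dendritic cells. Irf1, a transcription factor that it induces, was at 79.2 CPM in E2 and 149 CPM in placebo cDC2, 1.88-fold lower (1.56 to 2.27). Of 17 members 13 were below 0, beside 63.3% of all genes, 3 were at least 1.5-fold lower, beside 4.23%, and 1 higher, beside 1.80%. The higher one was the chemokine gene Cxcl10, with UMIs in 11 and 4 cells. The list median was -0.22, or -0.08 under TMM scaling. It was also below 0 in cDC1 and the T cell gate, at -0.42 in each, in C1q macrophages, at -0.26, and in Ly6c2 monocytes, at -0.16. In mature dendritic cells it was 0.11.

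The type I interferon list, the antiviral response, had 19 of 24 members above 0, beside 36.7% of all genes, 7 at least 1.5-fold higher, beside 1.80%, 0 lower and a median of 0.27. The ubiquitin-like protein gene Isg15 was at 68.8 CPM in E2 and 28.4 CPM in placebo cDC2, 2.42-fold higher (1.70 to 3.54), in 61 of 249 and 21 of 88 cells. Rtp4, a negative regulator of the response, was at 21.9 and 3.15 CPM, in 38 and 4 cells. Most of the other members past 1.5-fold were scarce. The antiviral enzyme gene Rsad2 had 29 UMIs in E2 and 0 in placebo cDC2, and at a floor of 3 UMIs 6 members instead of 7 were past 1.5-fold. The RNA-binding effectors Ifit1 and Ifit3 had 33 and 31 UMIs in E2 and 1 UMI each in placebo cDC2. Among members with at least 100 UMIs the list median was -0.07, and summed per cell the list had a median of 1904 CPM in E2 and 2118 CPM in placebo cDC2. The positive list median thus rested on members with under 100 UMIs, although Isg15 was above that number, and the abundant member Ifitm3 was at 1743 and 1654 CPM. The list was not higher in cDC2 alone, with medians of 0.74 in mature dendritic cells and 0.27 in C1q macrophages. It had medians of 0.02 in cDC1, -0.08 in Ly6c2 monocytes and -0.16 in the T cell gate. These differences between gates were not tested.

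The promoters of Isg15, Ifit1 and Ifit3 are shown as members that were higher and hold the core of the interferon-stimulated response element. The core, GAAA and a second GAAA with any 2 bases between them, was searched on both strands of the same RefSeq promoters and was in 12 of the 17 list members with an entry and in 3.44% of all promoters. Matches are in capitals, overlapping ones as 1 run, and on the opposite strand they read as TTTC, 2 bases and TTTC. The windows are chr4:156200837-156200916 on the minus strand for Isg15 (98 to 19 bases before the start), chr19:34640765-34640844 on the plus strand for Ifit1 (124 to 45 bases) and chr19:34583353-34583432 on the plus strand for Ifit3 (176 to 97 bases).
Isg15: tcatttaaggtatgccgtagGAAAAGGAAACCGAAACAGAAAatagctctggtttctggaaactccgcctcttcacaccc
Ifit1: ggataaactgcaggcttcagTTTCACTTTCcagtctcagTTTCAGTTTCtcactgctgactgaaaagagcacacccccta
Ifit3: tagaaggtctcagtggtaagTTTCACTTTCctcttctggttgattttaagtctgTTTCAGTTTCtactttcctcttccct

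Chemokine and cytokine genes had 17 of 25 members above 0, 8 at least 1.5-fold higher (1.80% of all genes) and 3 lower (4.23%), with a median of 0.32 that was 0.06 with thinned cells. Ccl6, a myeloid chemokine, was at 276 CPM in E2 and 154 CPM in placebo cDC2, in 170 and 53 cells. Il18, which drives interferon-gamma from lymphocytes, had 46 UMIs in 34 E2 cells and 1 UMI in 1 placebo cell, a ratio of 15.5 with a wide interval (2.65 to 627). The abundant members Il1b, at 1748 and 1389 CPM, and Ccl17, at 672 and 585 CPM, were within 1.5-fold. Osm, a cytokine of the interleukin 6 family, was at 51.2 and 97.0 CPM and on the lower side with Areg and the eosinophil chemokine gene Ccl24, which had 19 and 48 UMIs in 4 and 8 cells.

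Dendritic cell transcription factors had 14 of 19 members below 0, beside 63.3% of all genes, 5 at least 1.5-fold lower, beside 4.23%, and 0 higher, with a median of -0.18 that was -0.02 under TMM scaling. Beside Tcf4 and Irf8 these included Zeb1 and Runx3, the second at 118 CPM in E2 and 195 CPM in placebo cDC2. The log2 ratio of Irf8 was -0.88, but -0.32, within 1.5-fold, without the cells with Siglech and 0.33 with 5 or more Cd209a UMIs. Id2, an inhibitor of Tcf4-type factors that conventional dendritic cells require, was at 167 and 122 CPM. Among genes used to divide cDC2 into subsets, 9 of 16 were measured and the median was -0.07, or 0.10 under TMM scaling. The lymphotoxin gene Ltb, at 28.8 and 13.4 CPM, and Clec4a2 were higher, Cx3cr1, at 30.1 and 59.2 CPM, and Cd7, at 119 and 209 CPM, lower, and Sirpa and Itgam were at 244 and 241 CPM in E2 and 270 and 239 CPM in placebo cDC2.

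The receptors for the hormone itself were scarce. Esr1, estrogen receptor alpha, had 7 UMIs in 7 of 249 E2 cells and 0 UMIs in 88 placebo cells, so that at most 3.41% of such cells could hold an Esr1 UMI by the limit of 3 counts. Esr2, Gper1 and the estrogen-induced genes Greb1 and Pgr had 0 UMIs in both. Of 10 receptors and co-regulators measured 8 were below 0, beside 63.3% of all genes. Only 1 was at least 1.5-fold lower, beside 4.23%, the acetyltransferase gene Crebbp at 73.6 CPM in E2 and 126 CPM in placebo cDC2. The list median was -0.25, or -0.09 under TMM scaling. It was also below 0 in the other 5 gates, from -0.35 in mature dendritic cells to -0.16 in C1q macrophages. Among 15 other nuclear receptors and their targets, with a median of -0.12, 3 were lower, beside 4.23% of all genes. They were the vitamin D receptor Vdr, at 22.9 and 58.4 CPM, 2.55-fold lower (1.84 to 3.51), and the retinoid receptors Rxra and Rara. Rxra and Rara were at 18.1 and 73.6 CPM in E2 and 34.7 and 122 CPM in placebo cDC2.

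Lipid-handling genes were mixed, with 5 of 20 higher (4 at a floor of 3 UMIs), 2 lower and a median of 0.20 that was -0.13 in thinned cells. As above, 1.80% of all genes were higher and 4.23% lower. Lipoprotein lipase (Lpl) had 176 UMIs in 23 E2 cells and 3 UMIs in 3 placebo cells, a ratio of 19.8 (6.67 to 97.1). The iron and metallothionein list had 2 of 8 members higher, 0 lower and a median of 0.35. It was led by the metal-binding protein gene Mt1, at 668 CPM in E2 and 363 CPM in placebo cDC2, 1.84-fold higher (1.67 to 2.04). Ribosomal protein genes had 21 of 26 members above 0, beside 36.7% of all genes, and a median of 0.19. Their median was also above 0 in the other 5 gates, from 0.07 in Ly6c2 monocytes to 0.31 in cDC1. The lists of oxidative phosphorylation, hypoxia, Toll-like receptors, costimulation, dissociation stress, dendritic cell maturation and cytokine receptors had medians between -0.07 and 0.05, with 0 or 1 member past 1.5-fold in either direction. The alarmin list, with a median of 0.14, had S100a8 and S100a9 as its 2 higher members, and the retinoic acid and tolerance list, with a median of 0.10 over 5 members, had the amino acid oxidase gene Il4i1 as its 1 lower member. That median was -0.46 with at least 100 UMIs and -0.83 in thinned cells, each over 2 members. Cell cycle genes had 0 of 27 higher and 3 lower, with a median of -0.16 that turned positive under TMM scaling, at 0.01. Summed per cell, this list lay on the other side, with a median of 2534 CPM in E2 and 2126 CPM in placebo cDC2.

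Within themselves the members fell into 7 sub-clusters when the cells of both libraries were grouped by expression. The largest held 123 cells and was led by Ccl17, Cxcl2 and Ear2. Others were led by Apoe, F13a1 and Plac8 (60 cells), by Il1r2, Tbc1d4 and Cd72 (51), by Fn1, Cd81 and Ccl6 (36), by Cyp7b1, Pi16, Cd209e and Tcf4 (32), by the mitotic genes Birc5 and Top2a (23), and by Siglech, Ly6d and Irf8 (12). Several genes that differed between the libraries, Plac8, Tcf4, Pi16, Fn1, Siglech, Ltb, Ccl6, Clec4n, Mt1 and Dpep2 among them, are among the leading genes of a sub-cluster. The libraries were not spread alike over the sub-clusters, and because such genes define them their sizes are not compared between libraries. For these genes, and for others whose level differed between sub-clusters, a different mix of sub-clusters and a different level within cells cannot be told apart. Mgl2, at 24.4 CPM in the sub-cluster led by Siglech and 1741 CPM in that led by Ccl17, is one of the others.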

How the data were processed

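Single-cell 3′ RNA was measured in 1 E2 and 1 placebo library. The deposited values are raw UMI counts per gene and barcode, which the authors made with Cell Ranger 3.1.0 on mm10, per the submitters' processing notes, with no normalization. Each matrix lists 47730 features, and 126 symbols shared by several features were summed. Barcodes with under 200 genes were removed. Total counts were 52628133 UMIs in the E2 and 24545595 UMIs in the placebo library, and the summed cDC2 UMIs were 3750983 and 1267827.

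For each gate and library, UMIs were added up over cells and scaled to CPM. Genes with at least 20 UMIs over both libraries, rule genes left out, were described by log2((CPM E2 + 10)/(CPM placebo + 10)), and called at 1.5-fold. Ratios of CPM carry exact conditional-binomial, and shares Clopper-Pearson, 95% intervals. With 1 library per group no test was run. The scripts were tested on simulated data.

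The 12 highest and 12 lowest ratios were named among genes that reached 50 CPM in either library and 30 UMIs in the sum of both. Ribosomal, mitochondrially encoded, antigen receptor, Gm and Rik genes were left out of these. The 8 highest and 8 lowest against each of 4 other gates were named with the same filters. Up to 5 members of each of 24 lists were named from all genes with at least 20 UMIs over both libraries. Other list members were named for their role in a list, after their values were seen. Some genes that the rule takes are not reported here. The members, lists and tests were chosen with earlier results of these data known. Of the listed genes, 2 were not found under their symbols. The other cell types' marker lists, 18 with the cDC2 list, were summed; those not given in the report were at 221 and 275 CPM (cDC1), 133 and 132 CPM (mature dendritic cells), 107 and 130 CPM (Langerhans cells), 18.1 and 0 CPM (NK cells), 57.6 and 29.2 CPM (ILC2), 31.2 and 26.8 CPM (mast cells), 2.67 and 3.94 CPM (basophils), 42.9 and 4.73 CPM (fibroblasts), 55.2 and 42.6 CPM (endothelium) and 1.33 and 0 CPM (red cells) in E2 and placebo cDC2.

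Doublet scores came from scanpy 1.11.5, and the highest-scoring 0.8% per 1000 barcodes (268 E2 and 98 placebo barcodes) were left out in an alternative. Sub-clusters used 2000 variable genes, 20 principal components, 15 neighbours and Leiden resolution 0.5 (leidenalg 0.10.2, igraph 0.11.9). Alternatives changed the pseudocount, the UMI minimum, the scaling (TMM), the summing (mean over cells), the depth (2000 UMIs per cell), the Cd209a limit and the cells kept. Leaving out cells with 3 or more Siglech UMIs, and barcodes present in both libraries, were chosen after seeing the data. Gene coordinates are 1-based, from GENCODE on the mm10 assembly. Python 3.11.15, numpy 2.4.6, scipy 1.17.1, pandas 2.3.3, scikit-learn 1.9.0, anndata 0.12.19 and matplotlib 3.10.9 were used.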

Additional observations from a re-analysis of the deposited data

Results flagged for a closer look

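In 4 genes named for cDC2, the libraries differed in the opposite direction in the cDC1 gate. These differences between the gates were not tested. S100a9 had a log2 ratio of E2 over placebo of 3.51 in cDC2 and -1.93 in cDC1, and S100a8 of 3.47 in cDC2 and -1.34 in cDC1. In E2 cDC2 a single cell held 78.2% and 80.7% of their UMIs. Ly6d had a log2 ratio of -2.46 in cDC2 and 0.80 in cDC1, and Siglech of -1.34 in cDC2 and 1.65 in cDC1. In cDC2 both lay in the few cells with 3 or more Siglech UMIs. In cDC1 Siglech was at 21.4 CPM in the 296 E2 cells and at 0 CPM in the 54 placebo cells, so its ratio there rests on a count at the floor.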

How the results depend on the processing

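No paired analysis was possible because each group is 1 library, and for the same reason no replicate could be left out. The cDC2 share was 4.93% of the E2 library with 2 or more Cd209a UMIs or with no C1q limit, 3.43% and 2.01% of the E2 and placebo libraries with 5 or more, 0.954% and 0.559% in thinned barcodes, and 11.6% and 10.0% (ratio 1.16) of class II-bearing barcodes. The counts of genes higher and lower were 585 and 1272 with a pseudocount of 1, 29 and 34 with 50, 80 and 216 with at least 100 UMIs, and 310 and 153 with TMM, and 320 and 585 in thinned cells. Of 24 list medians and their alternatives, 7 values reversed: type I interferon to -0.074 with at least 100 UMIs, lipid handling to -0.13 in thinned cells, and cell cycle to 0.012 with TMM, 0.094 as the mean over cells, 0.12 without the highest cell of each gene, 0.20 without cells with monocyte genes and 0.13 without shared barcodes. List medians within 0.1 of 0 are given no direction and are left out of that number. Single genes reversed in 8 values: Apoe to -0.14 without doublets and -0.16 with 2 or more Cd209a UMIs; Siglech to 1.23, Irf8 to 0.33 and Ctsl to 0.60 with 5 or more; Ctsl to 0.0067 without cells with Siglech; and Ube2c to 0.017 without its highest cell and 0.12 without cells with monocyte genes. Another 1590 single-gene values kept their side and size and 146 moved without changing sign, as did 267 and 62 list medians. All 256 values against other gates kept their side. The cause of these changes was not tested. With 88 placebo cells, genes with few UMIs are the least certain.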
